A study of Mus musculus with 10 samples.

Results

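The 9 chemokine ligand genes Cxcl9, Cxcl10, Cxcl16, Ccl2, Ccl3, Ccl4, Ccl5, Ccl17 and Ccl22 were followed by mRNA-sequencing in CD8+ cDC1 from the spleen. They were taken by gene symbol from a table of normalized counts of 10767 genes, which holds 8 of them. Ccl17 is not among its genes, so no value is given for it. The authors had removed low expressed transcripts, so a gene without a value may lie under that limit. Ccl2 was selected on its measured values, the rise of its normalized counts in Ppef2-/- cells, and its difference between genotypes is therefore a description without a test. The other 7 ligands were tested. The compared groups were CD8+ DCs of Ppef2+/+ mice and of Ppef2-/- mice, in which a knockout-first gene trap lies between exons 4 and 5 of Ppef2, a gene for a protein phosphatase with EF-hand calcium binding domains, in every cell of the body. The ES cells with this allele gave chimeras that were crossed with C57BL/6 mice. All mice were untreated, matched for sex and age, and 8 to 13 weeks old. Each of the 10 libraries is a pool of CD11c+MHCII+CD8+CD11b- cells from 3 mice, not a single mouse, and each of 5 independent sorts gave 1 library of either genotype.

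Chemokines are small secreted proteins that direct migrating leukocytes through G protein-coupled receptors. DCs use them to bring T cells and NK cells into contact with presented antigen. Cxcl9 and Cxcl10 bind Cxcr3 on activated T cells and NK cells and are classical targets of interferons. Ccl3, Ccl4 and Ccl5 attract T cells, NK cells and monocytes, and Ccl3 and Ccl5 bind Ccr1. Ccl17 and Ccl22 bind Ccr4, Ccl2 binds Ccr2 on monocytes, and Cxcl16, which is made as a membrane protein, binds Cxcr6.

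In Ppef2+/+ cells, Ppef2 itself had 95 to 228 reads per library, compared to 0 to 8 reads in Ppef2-/- cells, so the genotypes did not overlap. On the log2 scale of the deposited values the difference was -4.78 (SE 0.51, adjusted p = 0.000121 by limma with Benjamini-Hochberg adjustment), and it was the only gene of 10767 with an adjusted p under 0.05 (0.00929%). The deposited normalized counts have the mean of each sort taken out, gene by gene, so that the libraries of a sort mirror each other and both genotypes have the same SD. For genes with every value under 1000, whole reads could be calculated back and the sort means put back, which worked for 6 of the 8 ligands and 9626 genes. Cxcl9 and Cxcl16 are given as deposited. Depth in these genes ran from 1396238 to 2273425 reads in the Ppef2+/+ libraries and from 1508289 to 4409348 in the Ppef2-/- libraries. Of 14 cDC1 markers all were in the table, including Xcr1, Clec9a and Cd8a, and of 14 NK and T cell markers none was.

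The ligands differed widely in level. Per kb of exon, the scale on which genes can be compared, Cxcl9 was the highest at 688 ± 98.0 normalized counts per kb in Ppef2+/+ cells (SD, n = 5). Cxcl16 had 447 ± 19.5, Ccl5 438 ± 154 and Ccl4 318 ± 160 normalized counts per kb in the same cells. Cxcl16, Ccl5 and Ccl4 lay within the spread of each other, as Ccl5 ran from 302 to 692 and Ccl4 from 91.3 to 485 normalized counts per kb. Below them came Cxcl10 with 152 ± 81.0, Ccl3 with 110 ± 38.9 and Ccl22 with 104 ± 24.8 normalized counts per kb, and these 3 neighbours did not differ beyond their spread either. Ccl2 was the lowest, at 19.6 ± 12.9 normalized counts per kb. Compared to all genes with an exon length (median 56.0 normalized counts per kb over all libraries), Cxcl9 was above 96.4% of them and Ccl2 above 33.4%. The order in Ppef2-/- cells differed only in that Ccl4 (413 ± 226) stood above Ccl5 (404 ± 110), a step well inside their SD.

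**Figure D1:**
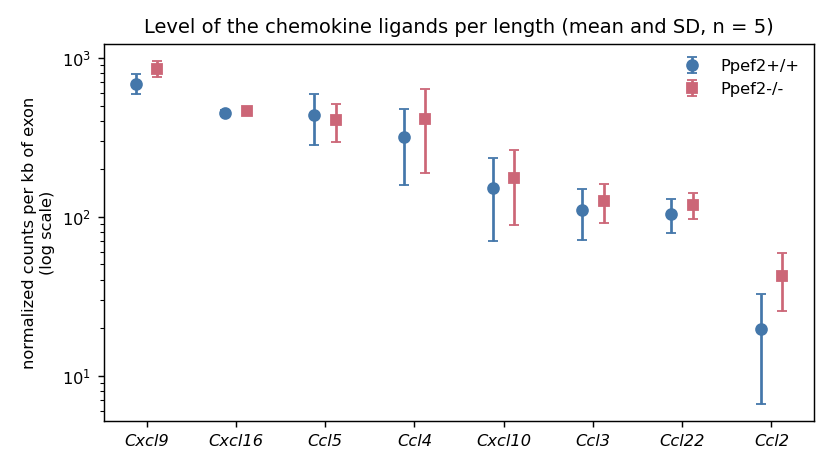
Mean level of each ligand in normalized counts per kb of exon (log axis) in Ppef2+/+ (circles) and Ppef2-/- (squares) CD8+ DCs, with the SD over 5 libraries as bars. Cxcl9 and Cxcl16 are as deposited, so their bars lack the spread between sorts. The levels run from 19.6 per kb for Ccl2 to 688 per kb for Cxcl9 in Ppef2+/+ cells.

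Cxcl9 and Cxcl10 lie close to the targeted gene. In the GENCODE M21 annotation of GRCm38 (mm10), Cxcl9 spans chr5:92321347-92328079 and Cxcl10 spans chr5:92346638-92348889, both on the minus strand, as is Ppef2 at chr5:92226679-92256278. The distance from the edge of Ppef2 is 65069 bases for Cxcl9 and 90360 bases for Cxcl10, with Naaa and Sdad1 in between. Because both ligands are known interferon targets, the 250 bases before their RefSeq start (GRCm38.p6) are shown and were searched on both strands for an ISRE core (GAAA, any 2 bases, GAAA), a GAS element (TTC, any 3 bases, GAA) and a kB site (GGGA, any 2 bases, TTCC), with matches in capitals.
Cxcl9, chr5:92328080-92328329, minus strand: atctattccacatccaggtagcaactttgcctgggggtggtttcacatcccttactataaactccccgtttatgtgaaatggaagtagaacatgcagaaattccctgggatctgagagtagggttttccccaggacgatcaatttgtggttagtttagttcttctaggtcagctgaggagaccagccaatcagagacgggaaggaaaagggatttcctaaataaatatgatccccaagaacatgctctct
Cxcl10, chr5:92348890-92349139, minus strand: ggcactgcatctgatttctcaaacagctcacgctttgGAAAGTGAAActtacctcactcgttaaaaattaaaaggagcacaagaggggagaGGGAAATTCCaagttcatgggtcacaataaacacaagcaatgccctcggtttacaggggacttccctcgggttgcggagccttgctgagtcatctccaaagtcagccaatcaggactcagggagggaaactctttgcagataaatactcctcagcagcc
The Cxcl10 window holds an ISRE core match that begins at -213 and a kB match that begins at -159 from the start. The Cxcl9 window holds none of the 3 letter patterns. Of 32851 windows of the same length before RefSeq genes, 2.98% hold the ISRE core, 7.02% the GAS element and 1.21% the kB site. A match is a run of letters and does not show that a factor binds there. A window without a match may still hold sites that differ from these patterns, so it does not show that such elements are lacking.

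Between the genotypes, none of the 7 ligands tested passed an adjusted p of 0.05 in limma with the sort as a block (0 of 7, against 0.00929% of all genes). At an unadjusted p under 0.05 there were 2 of 7, Cxcl9 and Ccl4, both higher in Ppef2-/- cells, against 4.29% of all genes, with 2.30% higher and 1.99% lower. The same 2 ligands were higher in Ppef2-/- cells in every sort, as were 3.26% of all genes, and 0 of 7 were lower in every sort, as were 2.92% of all genes. The log2 difference was positive for 6 of 7 ligands, with a median of 0.20, whereas 50.5% of all genes had a positive difference and the median of all genes was 0.00089. With limma voom on whole reads, 0 of 5 ligands passed the adjusted threshold, against 0.0208% of all genes, and 1 of 5, Ccl4, the unadjusted threshold, against 4.56%. Without a trend in limma's eBayes, Ccl4 alone was under the unadjusted threshold, since the unadjusted p of Cxcl9 was 0.0711. In these bulk samples, a change in the number of cells that make a ligand and a change in its mRNA per cell cannot be told apart.

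**Figure D2:**
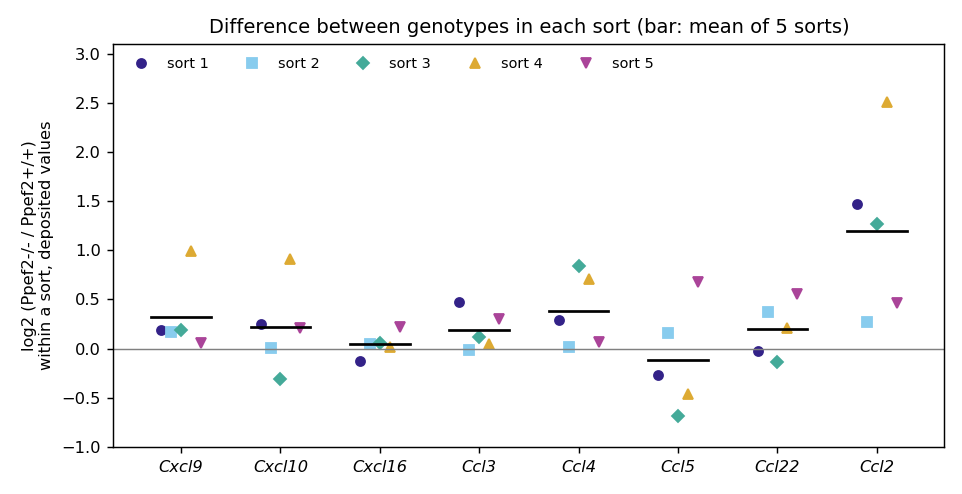
Log2 ratio of the deposited normalized counts, Ppef2-/- over Ppef2+/+, within each of 5 sorts (symbols) for the 8 ligands in the table, with the mean of the sorts as a bar. With sort means put back the ratios differ, as for Ccl4 in sort 1 (1.22 deposited, 1.80 put back) and Ccl2 in sort 4 (5.68 and 3.01). All 5 points lie above 0 for Cxcl9, Ccl4 and Ccl2, and the remaining ligands have points on both sides of 0.

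Cxcl9, the interferon-induced ligand of Cxcr3, gave 2085, 2102, 2083, 1487 and 2183 deposited normalized counts for Ppef2+/+ cells (sorts 1 to 5). For Ppef2-/- cells the values were 2373, 2356, 2375, 2971 and 2275. All Ppef2-/- values were above all Ppef2+/+ values, as they have to be in mirrored values when every sort goes the same way, but the gap was uneven, with a difference of 1485 normalized counts in sort 4 and between 92.6 and 292 in the other sorts. The means were 1988 ± 283 and 2470 ± 283 normalized counts (SD, n = 5), and the log2 difference was 0.32 (SE 0.09, unadjusted p = 0.00223, adjusted p = 0.995 by limma with Benjamini-Hochberg adjustment). Without sort 4 the log2 difference was 0.15 (SE 0.05, unadjusted p = 0.00602 in limma), less by more than 1.5 times.

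**Figure D3:**
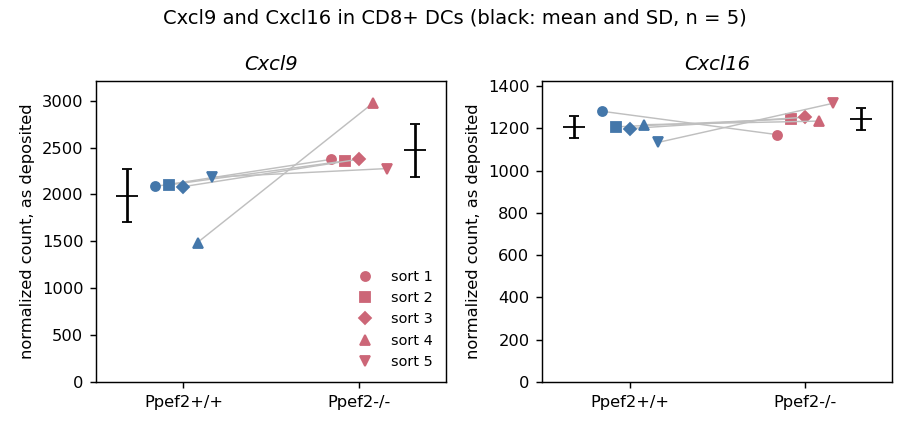
Deposited normalized counts of Cxcl9 (left) and Cxcl16 (right) in Ppef2+/+ and Ppef2-/- CD8+ DCs. Symbols are the 5 sorts, grey lines join libraries of a sort, and black bars are the mean and SD. For Cxcl9, sort 4 stands apart with 1487 and 2971 normalized counts, and the Cxcl16 values overlap between 1133 and 1318.

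Cxcl10, the other interferon-induced Cxcr3 ligand on chromosome 5, with sort means put back gave 72.6, 110.4, 295, 213 and 138 normalized counts for Ppef2+/+ cells (sorts 1 to 5) and 104, 112, 257, 323 and 164 for Ppef2-/- cells. The genotypes overlapped over nearly their whole range, and Ppef2-/- was higher in 4 of 5 sorts. The log2 difference on the deposited scale was 0.22 (SE 0.13, unadjusted p = 0.109 in limma), and without sort 4 it was 0.04 (SE 0.12). Without sort 3 the value of Cxcl10 rose to 0.35 (SE 0.13, unadjusted p = 0.0158 in limma), so that it rested on single sorts in either direction. Of the 14 genes in the table within 1000000 bases of Ppef2, 1 had an unadjusted p under 0.05 in limma, namely Cxcl9, against 4.29% of all genes. The log2 differences of the 14 ran from -0.11 to 0.32 with 5 positive. Naaa and Sdad1, which lie between Ppef2 and Cxcl9, had log2 differences of -0.08 (SE 0.05, unadjusted p = 0.0881) and 0.08 (SE 0.05, unadjusted p = 0.122 in limma). Cxcl9 and Cxcl10 therefore had the largest differences of the 14 genes, of which only Cxcl9 was under the unadjusted threshold.

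**Figure D4:**
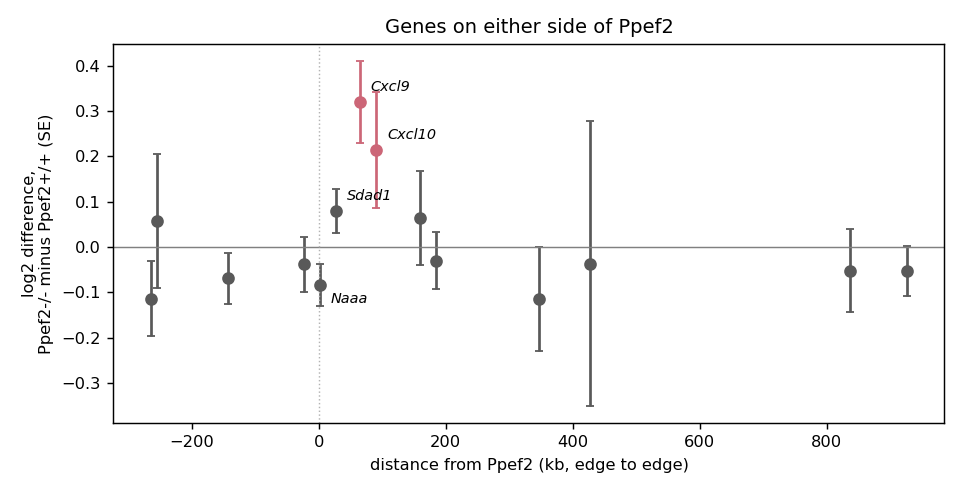
Log2 difference between genotypes (Ppef2-/- minus Ppef2+/+, bars are SE) of the 14 genes in the table within 1000000 bases of Ppef2, against the distance from its edge in kb. Cxcl9 (0.32) and Cxcl10 (0.22) are the highest points, and Naaa, nearest to Ppef2, is at -0.08.

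Cxcl16, the transmembrane ligand of Cxcr6, had the smallest difference between genotypes of the 7 ligands tested. Its deposited values were 1281, 1207, 1199, 1217 and 1133 normalized counts for Ppef2+/+ cells (sorts 1 to 5) and 1170.4, 1244, 1252, 1234 and 1318 for Ppef2-/- cells. The genotypes overlapped, with a mean of 1207 ± 52.7 and 1244 ± 52.7 (SD, n = 5). The log2 difference was 0.04 (SE 0.06, unadjusted p = 0.452 in limma), and it turned to -0.00074 without sort 5.

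Of Ccl3, Ccl4 and Ccl5, which lie near each other on chromosome 11, Ccl4 was higher in Ppef2-/- cells at the unadjusted threshold. With sort means put back it had 60.2, 144, 320.2, 269.9 and 255 normalized counts for Ppef2+/+ cells (sorts 1 to 5) and 109, 148, 456, 386 and 266 for Ppef2-/- cells. The genotypes overlapped across sorts, because the level moved far more between sorts than between genotypes, but Ppef2-/- was higher in 5 of 5 sorts. With sort means put back the ratio was 1.02 and 1.04 in sorts 2 and 5, and 1.80, 1.43 and 1.43 in sorts 1, 3 and 4. The deposited means were 209.9 ± 30.3 and 273 ± 30.3 normalized counts (SD, n = 5), with a log2 difference of 0.38 (SE 0.11, unadjusted p = 0.00244, adjusted p = 0.995 by limma with Benjamini-Hochberg adjustment). Leaving out each sort in turn gave 0.27 to 0.47.

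Ccl3, which binds Ccr1, gave 52.0, 59.98, 113, 117 and 79.7 normalized counts for Ppef2+/+ cells with sort means put back and 81.3, 59.1, 119.9, 120.5 and 98.6 for Ppef2-/- cells. It was higher in Ppef2-/- in 4 of 5 sorts, by 0.18 on the log2 scale (SE 0.13, unadjusted p = 0.173 in limma), and by 0.11 without sort 1 (unadjusted p = 0.441). Ccl5 went the other way in 3 of 5 sorts. Its levels were 201, 161, 368, 247 and 188 normalized counts for Ppef2+/+ cells and 160.2, 185, 263, 175 and 292 for Ppef2-/- cells. The log2 difference of Ccl5 was -0.12 (SE 0.14, unadjusted p = 0.410 in limma), and it turned to 0.03 without sort 3, where the Ppef2+/+ level was the highest, and to -0.31 (unadjusted p = 0.0144) without sort 5. Neither Ccl3 nor Ccl5 passed the test with the sort as a block.

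Ccl22, the Ccr4 ligand that mature DCs make, gave 207, 157, 304, 257 and 227 normalized counts for Ppef2+/+ cells with sort means put back and 203, 219.8, 281, 293 and 320.4 for Ppef2-/- cells. Ppef2-/- was higher in 3 of 5 sorts and the genotypes overlapped. The log2 difference was 0.20 (SE 0.10, unadjusted p = 0.0577 in limma). With sort means put back the unadjusted p was 0.0440 (log2 difference 0.21, SE 0.10), under the unadjusted threshold. Leaving out sorts changed the value, to 0.11 (unadjusted p = 0.301 in limma) without sort 5, to 0.15 (unadjusted p = 0.188) without sort 2 and to 0.28 (unadjusted p = 0.0140) without sort 3. Its neighbour Ccl17, with the same receptor and 514 exon bases at chr8:94810453-94812036, has no value in the table.

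Ccl2, the ligand of Ccr2 on monocytes, was chosen for its rise, and its values are given as a description. Its reads numbered 0, 10, 13, 19 and 29 for Ppef2+/+ cells (sorts 1 to 5) and 51, 31, 43, 50 and 27 for Ppef2-/- cells. With sort means put back this came to 0, 13.6, 19.5, 17.6 and 28.9 normalized counts in Ppef2+/+ and to 23.7, 18.3, 40.3, 52.8 and 37.0 in Ppef2-/- libraries. Ppef2-/- was higher in 5 of 5 sorts, but across sorts the genotypes overlapped. The count of 0 in sort 1 allows up to 3 reads, or 4.11 normalized counts. The Ppef2-/- value of that sort was 5.77 times this limit, with no counting error taken on its 51 reads, whereas the ratio in sort 5 was 1.28. The deposited means were 15.9 ± 6.19 and 34.4 ± 6.19 normalized counts (SD, n = 5). With at most 51 reads per library, Ccl2 was the ligand with the least depth behind it. Of 18 macrophage and monocyte markers 14 were in the table, and their summed deposited level ran from 2932 to 3263 normalized counts in Ppef2+/+ and from 2908 to 3240 in Ppef2-/- libraries, with Fcgr1, Mertk, Marco and F13a1 not in the table. Of these markers 1 of 14 was under the unadjusted threshold, Ly6c2, which was lower in Ppef2-/- cells (log2 difference -0.45, SE 0.20, unadjusted p = 0.0387 in limma), against 1.99% of all genes. Ly6c2 was higher in Ppef2-/- in 2 of 5 sorts. Its fall was largest in sort 5, from 87.3 to 29.7 deposited normalized counts. With sort means put back its unadjusted p was 0.0524 in limma. Ccr2 itself had a log2 difference of 0.04 (SE 0.08).

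Within sorts, the marker sums of pDC and of stroma and endothelium were lower in Ppef2-/- cells, and these sums were not tested. The summed deposited level of 8 pDC markers was 1313 to 1421 normalized counts in Ppef2+/+ and 1175 to 1280.0 in Ppef2-/- libraries, lower in Ppef2-/- in 5 of 5 sorts. Mirrored values have to stand apart when every sort goes the same way. Single genes that were lower in every sort made up 2.92% of all genes. With sort means put back the sums overlapped, at 1238 to 1609 and 1107 to 1361 normalized counts. At the unadjusted threshold 2 of the 8 were lower, against 1.99% of all genes. These were Tcf4 (log2 difference -0.31, SE 0.07, unadjusted p = 0.000510 in limma, deposited means 423 and 342) and Siglech (-0.25, SE 0.11, unadjusted p = 0.0282, deposited means 156.9 and 131.5). Most of the fall of the pDC sum lay in these 2 genes. None passed the adjusted threshold, and Ccr9 had a log2 difference of 0.03. Of 8 stroma and endothelium markers 3 were in the table, with Col1a1, Col1a2, Col3a1, Pdgfrb and Cxcl12 absent. The 3 summed to 467 to 510.5 and to 414 to 458 normalized counts, again lower in 5 of 5 sorts. With sort means put back these sums also overlapped, at 468 to 526 and 399 to 471 normalized counts. Pecam1 made up most of the sum and most of its fall, with deposited means of 406 and 360.5 normalized counts. It was the 1 of the 3 lower at the unadjusted threshold (log2 difference -0.17, SE 0.08), against 1.99% of all genes. The part of the pDC, stroma and endothelium markers in the differences of the ligands was not tested.

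The ligands also differed between sorts. This could be followed in the 6 ligands whose sort means could be put back. In a limma F test of the sort with the genotype as covariate, which was added after the values had been seen, 6 of 6 ligands passed an adjusted p of 0.05, against 6.53% of all genes (629 of 9626). Ccl2 was among them, but it had been selected on these same values, so its result is only a description. Among genes with a mean of at least 50 normalized counts, which leaves out Ccl2, 5 of 5 ligands and 601 of 7349 genes passed. The ratio of the highest to the lowest sort was 4.60 for Ccl4, 3.12 for Cxcl10, 2.97 for Ccl2, 2.00 for Ccl3, 1.82 for Ccl5 and 1.55 for Ccl22, compared to a median of 1.23 over 7349 genes with a mean of at least 50 normalized counts. Only 0.231% of these genes had a ratio as large as that of Ccl4, and 0.640% one as large as that of Cxcl10. Ccl2, with a mean of 25.2 normalized counts, lies below the level of these genes, so its ratio is not set against like genes. Sorts 3 and 4 were the highest for Cxcl10, Ccl3 and Ccl4 in both genotypes, and sorts 1 and 2 the lowest. The adjusted p values by limma with Benjamini-Hochberg adjustment were 3.87e-10 for Ccl4, 9e-08 for Cxcl10, 0.00346 for Ccl3, 0.0127 for Ccl22, 0.0199 for Ccl2 and 0.0231 for Ccl5. For Ccl4, Cxcl10 and Ccl3 the adjusted p stayed under 0.05 when any sort was left out, with 0.0263 as the largest. For the other 3 it did not, as the adjusted p by limma was 0.415 for Ccl2 without sort 1, 0.510 for Ccl5 without sort 3 and 0.0635 without sort 2, and 0.142 for Ccl22 without sort 2. With voom on whole reads the adjusted p of Ccl2 was 0.226.

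**Figure D5:**
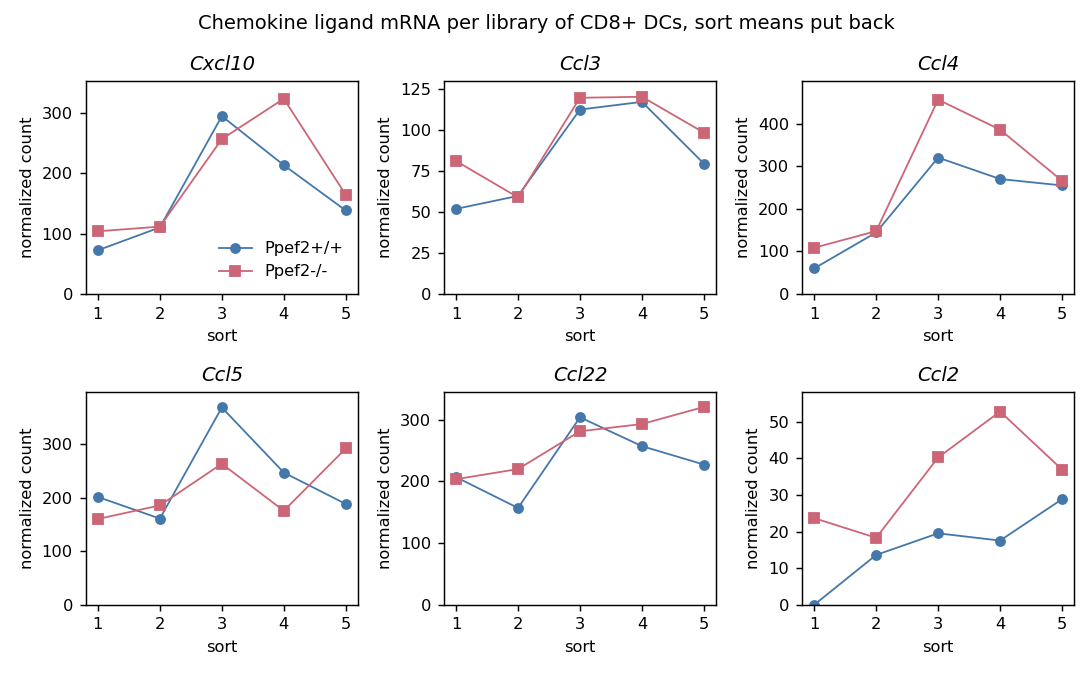
Normalized counts with sort means put back for the 6 ligands resolved to whole reads, by sort, in Ppef2+/+ (circles) and Ppef2-/- (squares) CD8+ DCs, 1 library per point. Lines join libraries of a genotype and do not mark an order in time. Ccl4 runs from 60.2 to 456 normalized counts, and for Cxcl10, Ccl3 and Ccl4 both genotypes are high in sorts 3 and 4 and low in sorts 1 and 2.

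Both libraries of a sort share that sort, and each sort has its own mice, so that the sorting and the mice cannot be told apart as sources of the difference between sorts. Marker sums of other states and cells varied between sorts to different degrees. The summed level of the 8 mature DC markers resolved to reads, of 12 in the table, was 1862, 2048, 3078, 3341 and 2437 normalized counts in sorts 1 to 5 as the mean of both genotypes, and 2 of the 8, Il12b and Cd274, passed the test between sorts, against 6.53% of all genes. The ratio of the highest to the lowest sort was 3.12 for Il12b and 3.27 for Cd274, but only 1.20 to 1.63 for the other resolved mature DC markers. Il12b, a subunit of IL-12 and IL-23, gave 296, 278, 652, 676 and 297 normalized counts for Ppef2+/+ and 206, 369, 761, 889 and 456 for Ppef2-/- cells (adjusted p between sorts 9.78e-09 by limma with Benjamini-Hochberg adjustment). The 7 cDC2 markers in the table, of 8 listed, summed to 807, 1022, 1381, 1368 and 1249 normalized counts in sorts 1 to 5 (1 of 7, Irf4, passed), and the 14 macrophage and monocyte markers to 2989, 3152, 3063, 3197 and 3027 (2 of 14, Cd14 and Hmox1, passed). The 8 pDC markers summed to 1204, 1375, 1234, 1185 and 1485 normalized counts, and the 3 resolved cDC1 markers to 1883, 1847, 1492, 1463 and 1763. Of the sums given here, that of the macrophage and monocyte markers moved least. The part of these markers in the differences of the ligands between sorts was not tested. Of the genes resolved in the other lists, 1 of 9 chemokine receptors, 1 of 10 genes of the interferon and NF-kappaB pathways, 1 of 8 genes of processing and export, 1 of 3 other ligands, 1 of 3 cDC1 markers, 0 of 8 pDC, 0 of 3 stroma and endothelium, 0 of 2 B cell and 0 of 2 neutrophil markers passed the test between sorts, against the same 6.53%. The receptor, named after its values were seen, was Ccrl2, a non-signaling receptor of the family, with 68.5, 131, 237, 225 and 149 normalized counts in Ppef2+/+ and 85.5, 101, 248, 217 and 178 in Ppef2-/- libraries.

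The ligands did not all share this pattern. Over the 10 libraries, where both libraries of a sort share their source, log2 levels of Cxcl10 and Ccl4 had a Pearson r of 0.93 (Spearman rho 0.96), Cxcl10 and Ccl3 of 0.92 (rho 0.88) and Ccl3 and Ccl4 of 0.88 (rho 0.89). Ccl5 had r of 0.55 to Cxcl10 (rho 0.48), 0.49 to Ccl4 (rho 0.52), 0.12 to Ccl2 (rho 0.12) and 0.75 to Ccl22 (rho 0.76). Within the 5 Ppef2+/+ libraries, r of Ccl5 was 0.80 to Cxcl10 and 0.20 to Ccl2, and within the 5 Ppef2-/- libraries it was 0.29 and 0.35. Among genes with a mean of at least 50 normalized counts, the pattern most like Cxcl10 was that of Crtc2 (r 0.99) and Sde2 (r 0.98). Ccl4 was most like Map3k8 and Fbxo33 (both r 0.98), and Ccl3 most like Gch1 (r 0.97) and Dusp2 (r 0.95). Ccl22 was most like Il21r (r 0.95) and Prnp (r 0.94), Ccl5 most like Srsf4 (r 0.95) and Rnf40 (r 0.91), and Ccl2 most like 9130011E15Rik (r 0.97) and A930013F10Rik (r 0.93). Each of these was the best of 7349 genes over 10 libraries and is given as a description.

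The receptors of the ligands were also measured in the cDC1. Of 23 chemokine receptors 12 were in the table and 0 had an unadjusted p under 0.05 between genotypes in limma, against 4.29% of all genes. Their median log2 difference was 0.03. Cxcr3, the receptor of Cxcl9 and Cxcl10, had 205 ± 15.6 normalized counts in Ppef2+/+ and 208 ± 15.6 in Ppef2-/- cells (SD, n = 5). Ccr2 had 230.0 ± 7.51 and 236 ± 7.51 normalized counts, Ccr1 29.2 ± 4.53 and 32.0 ± 4.53, and Cxcr6 9.43 ± 3.14 and 14.1 ± 3.14. Ccr4 was not in the table. Of 28 other chemokine ligands, only Ccl6, Cxcl2 and Cx3cl1 were in the table, and 0 of 3 had an unadjusted p under 0.05. All 10 genes of chemokine processing and export, such as the Cxcl16 sheddase Adam10, were in the table, and 0 of 10 had an unadjusted p under 0.05. Both counts stand against the same 4.29% of all genes.

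The interferon and NF-kappaB pathways induce chemokine genes. Of 22 genes of these pathways, inhibitors among them and all in the table, 0 passed an adjusted p of 0.05 by limma. At an unadjusted p under 0.05, 5 were higher in Ppef2-/- cells, against 2.30% of all genes, and 0 were lower, against 1.99%. The 5 include an inhibitor gene, so they are not all inducers. The median log2 difference of the list was -0.0028. Nfkb2 (log2 difference 0.13, SE 0.06, unadjusted p = 0.0324) and Nfkbiz (0.12, SE 0.05, unadjusted p = 0.0347 in limma), which belong to the NF-kappaB pathway, were higher in 5 of 5 sorts, as were 3.26% of all genes. Of 12 mature DC markers, Il12b alone had an unadjusted p under 0.05 (log2 difference 0.29, SE 0.09, unadjusted p = 0.00610 in limma), against 2.30% of all genes that were higher. Il12b was higher in Ppef2-/- cells in 4 of 5 sorts. With sort means put back its log2 difference was 0.22 (unadjusted p = 0.0366 in limma). On those values Cd274 was also under the unadjusted threshold (log2 difference 0.16, unadjusted p = 0.0498).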

How the data were processed

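mRNA-sequencing (poly-A, 50 bp single-end) covered 5 Ppef2+/+ and 5 Ppef2-/- libraries, grouped by their labels. The authors counted reads per RefSeq gene in Partek 6.6, normalized them with DESeq2 and set values below 1 to 1. They then removed transcripts with low group means and deposited this normalized count signal. A gene without a value may therefore be one under that limit, and shares of all genes cover only the genes kept. The paper names HISAT and the submitters' processing notes name TopHat2 2.0.3 for the alignment to mm10. The library kit does not mark strand. In 10721 of 10767 genes, the sum of both libraries of a sort is equal in all sorts (to within 6.3e-06 of it), a step not named in the sources used here. The numbers therefore pair the libraries, as they also mark the sort per the labels.

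Whole reads were calculated back in the 9627 genes with every value under 1000, and 9626 were resolved, from the value of 1 read per library (0.464 to 1.50 normalized counts) out of 870 pairs of steps per sort. A count of 0 allows up to 3 reads (1.39 to 4.51 normalized counts). These limits cover counting error only.

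Genotypes were compared with limma 3.58.1 in R 4.3.3 (lmFit, eBayes with a trend, two-sided) on log2(deposited normalized count + 1) with the sort as a block and Benjamini-Hochberg adjustment over 10767 genes. Differences and folds are on that scale unless stated. Nothing says that the pools came from separate litters, so p-values measure the spread between these samples. Alternatives were no block, other pseudocounts (0.1 and 10), a minimum mean of 50, other scalings, eBayes without a trend, no log, sort means put back, voom on whole reads and each sort left out. The test between sorts, its alternatives and the fit without a block on values with sort means put back were chosen after seeing the data. The members and lists were chosen with earlier results of these data known. The rule for named genes takes all ligands, Ppef2, up to 3 genes of smallest unadjusted p per list, the receptors that bind the ligands, the genes between Ppef2 and Cxcl10, and the 2 genes most like each ligand. Ccrl2, Cd274, Irf4, Cd14, Hmox1, Ccr9, Gp2, Dnajb1, Egr1 and Tdg were named after their values were seen. Some genes that this rule takes are not reported here. Tests were tried on simulated data first. Exon lengths are from RefSeq and positions from GENCODE M21, matched by symbol for 10392 genes. RefSeq windows were found for 5 of the 9 ligands.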

Additional observations from a re-analysis of the deposited data

Results flagged for a closer look

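Cxcl9 in sort 4 stood apart from the other sorts. The Ppef2+/+ library had 1487 normalized counts where the other 4 had 2083 to 2183, and the Ppef2-/- library had 2971 where the other 4 had 2275 to 2375. The gap to the nearest sort was 0.857 of the range in both genotypes, and because the deposited values of a sort mirror each other, both are the same event. Of 18 groups of 5 libraries compared, chance flags about 1 in 20.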

How the results depend on the processing

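The labels and the deposited values pair the libraries by sort, and without the replicate block 103 genes had an adjusted p under 0.05 and 1888 an unadjusted p under 0.05 in limma, with 4 of 7 ligands under the unadjusted threshold (Cxcl9, Ccl3, Ccl4 and Ccl22) and none under the adjusted one. That fit counts degrees of freedom which values without sort means do not have. With sort means put back and no replicate block, a fit chosen after seeing the data, 272 genes and 0 of 5 ligands had an unadjusted p under 0.05. With sort means put back and the block, 2 genes had an adjusted p under 0.05, as with voom (Ppef2 and Gp2), and 1 of 5 ligands was under the unadjusted threshold with voom. Without a trend in eBayes, 0 genes had an adjusted p under 0.05, 539 an unadjusted one, and 1 of 7 ligands, Ccl4, did. When each sort was left out, 1 to 4 genes had an adjusted p and 2 to 4 ligands an unadjusted p under 0.05, and the highest counts were without sort 4 (Ppef2, Dnajb1, Egr1 and Tdg) and without sort 3. The log2 difference of Cxcl16 ran from -0.00074 (without sort 5) to 0.086 (without sort 1), and that of Ccl5 from -0.31 (without sort 5) to 0.027 (without sort 3), so both turned sign. No alternative gave a ligand an adjusted p under 0.05 between genotypes. Between sorts, 4 to 6 of 6 ligands, with the selected Ccl2 among the 6, were under the adjusted threshold when a sort was left out, and 5 of 6 with voom. The causes of these changes were not tested, beyond the fewer samples and genes they use. Depth limits Ccl2 most.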
